A study of Mus musculus with 12 samples.

Results

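The 10 genes described here encode chains of cytokine receptors on splenic regulatory T cells (Treg): Il2rb, Il2rg, Il4ra, Il21r, Il6ra, Il6st, Il27ra, Il12rb1, Il12rb2 and Il10ra. They were taken by name from the 41457 genes of each of the 12 deposited gene tables, and each name matched 1 gene. RFP+CD4+ T cells, which the study took as FOXP3+ Treg, were sorted from mouse spleen. The reporter does not lie in the Foxp3 gene, so RFP is no direct readout of FOXP3. The cells were cultured overnight in recombinant human IL-2 at 5 U/mL, either alone (unstimulated) or with agonistic antibodies (stimulated). The antibodies were against CD3 at 1 µg/mL and CD28 at 2 µg/mL. CD18Foxp3 Treg came from CD18fl/fl Foxp3Cre mice, in which the Foxp3 promoter drives Cre and Cre removes exon 3 of Itgb2, the gene for the β2-integrin chain CD18. CD18wt Treg came from CD18wt/wt Foxp3Cre littermates, so that both genotypes carried Foxp3Cre and the RFP reporter, and no age was stated in the sources used here for the mice that were sequenced. Each combination of genotype and culture had 3 libraries, labelled as biological replicates. The question was how the RNA of these chains responded to T cell receptor stimulation, and whether it differed when Treg lacked CD18.

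Most cytokine receptors of T cells are built from a private chain that recognizes the cytokine and a shared chain that serves several receptors. IL2RG, the common gamma chain, serves the receptors for IL-2, IL-4 and IL-21 among others, IL6ST (gp130) serves those for IL-6 and IL-27, and IL12RB1 serves those for IL-12 and IL-23. Janus kinases (JAK) bound to the chains phosphorylate STAT factors, and Treg depend on IL-2 signaling through STAT5. The label of the group, the hematopoietin family, holds for 9 of the 10 chains by textbook classification, whereas IL10RA belongs to the class II receptors related to the interferon receptors.

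The libraries held 10665174 to 19005482 exon reads (median 16954380). Itgb2 was read at 465, 431 and 387 TPM (transcripts per 1000000, which are exon reads per exon length scaled to the same sum in every library) in unstimulated CD18wt Treg and at 229, 257 and 234 TPM in unstimulated CD18Foxp3 Treg, with 329 to 331 TPM and 131 to 202 TPM after stimulation. The ranges of the genotypes did not overlap, and since most Itgb2 exons lie outside the deleted one, the remaining reads do not measure leftover CD18. Foxp3 was read at 73.4 to 207 TPM in all 12 libraries. The summed TPM of 4 B cell markers (Ms4a1, Cd79a, Cd79b and Pax5) was 22.6 to 30.8 without and 8.79 to 19.9 with stimulation, which did not overlap. That of the CD8 T cell markers (2 genes) was 21.3 to 30.4 and 12.6 to 25.8, that of the NK cell markers (3 genes) was 3.88 to 8.55 and 1.11 to 2.54, and that of the myeloid markers (5 genes) was 4.31 to 19.6 and 5.72 to 11.3. The summed TPM of the dendritic cell markers (3 genes) was 0.0629 to 0.498 without and 0.477 to 2.06 with stimulation. That of the plasma cell markers (2 genes) was 1.09 to 4.85 and 1.61 to 3.38. That of the erythroid markers (2 genes) was 1.21 to 30.4 and 0 to 2.24, with the highest value in unstimulated CD18Foxp3 Treg. Of these lists, only Ncr1 of NK cells and Siglech of plasmacytoid dendritic cells were at 0 in all groups. The part of other cells in the results below was not tested. In bulk RNA, fewer cells of a type and less RNA per cell cannot be told apart. A stimulated CD18Foxp3 library, replicate 1, stood apart from its replicates, with a chi-square per gene of 58.9 and 64.3 against the other two, which differed from each other by 11.9. Unstimulated CD18wt replicate 3 also lay further from its replicates, at 41.3 and 39.8, than they lay from each other. It had the fewest exon reads, 10665174, and the lowest share of reads in introns, 3.32%. Below, the library that stood apart means stimulated CD18Foxp3 replicate 1. An exon value of a member is also given without that library if it changed sign, lost its call or moved by over 1.5 times. Values without unstimulated CD18wt replicate 3 are not given for every member.

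Stimulation moved the receptor chains in both directions. The IL-12 receptor chain Il12rb1 rose and the gp130-linked chains Il6ra, Il6st and Il27ra fell in both genotypes, as did the common gamma chain Il2rg and its partner Il21r, while Il4ra and Il2rb did not pass the test in either. Calls were made with edgeR's quasi-likelihood test on exon read counts, at a fold change of 1.5 or more together with an adjusted p (Benjamini-Hochberg, over every gene tested) no higher than 0.01. In CD18wt Treg, 7 of the 10 members were called, 1 higher and 6 lower, where 33.6% of the 11930 genes tested were called, 18.7% higher and 14.9% lower. In CD18Foxp3 Treg, 7 of 10 were called as well, 2 higher and 5 lower, where 38.6% of 12019 genes were called, 20.9% higher and 17.6% lower. The median log2 fold change of the members was -0.66 in CD18wt Treg and -0.44 in CD18Foxp3 Treg, beside 0.02 and 0.01 over all genes tested. Il12rb2 passed the filter on low counts only through its stimulated libraries, so its place among the called genes is no support for a direction. These fold changes are relative to the bulk of genes in TMM-normalized counts. In log2(TPM + 1) the change of a gene lay higher than in counts, by a median of 0.38 in the CD18wt and 0.34 in the CD18Foxp3 stimulation comparison. Small differences of a member therefore took another sign there.

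**Figure D1:**
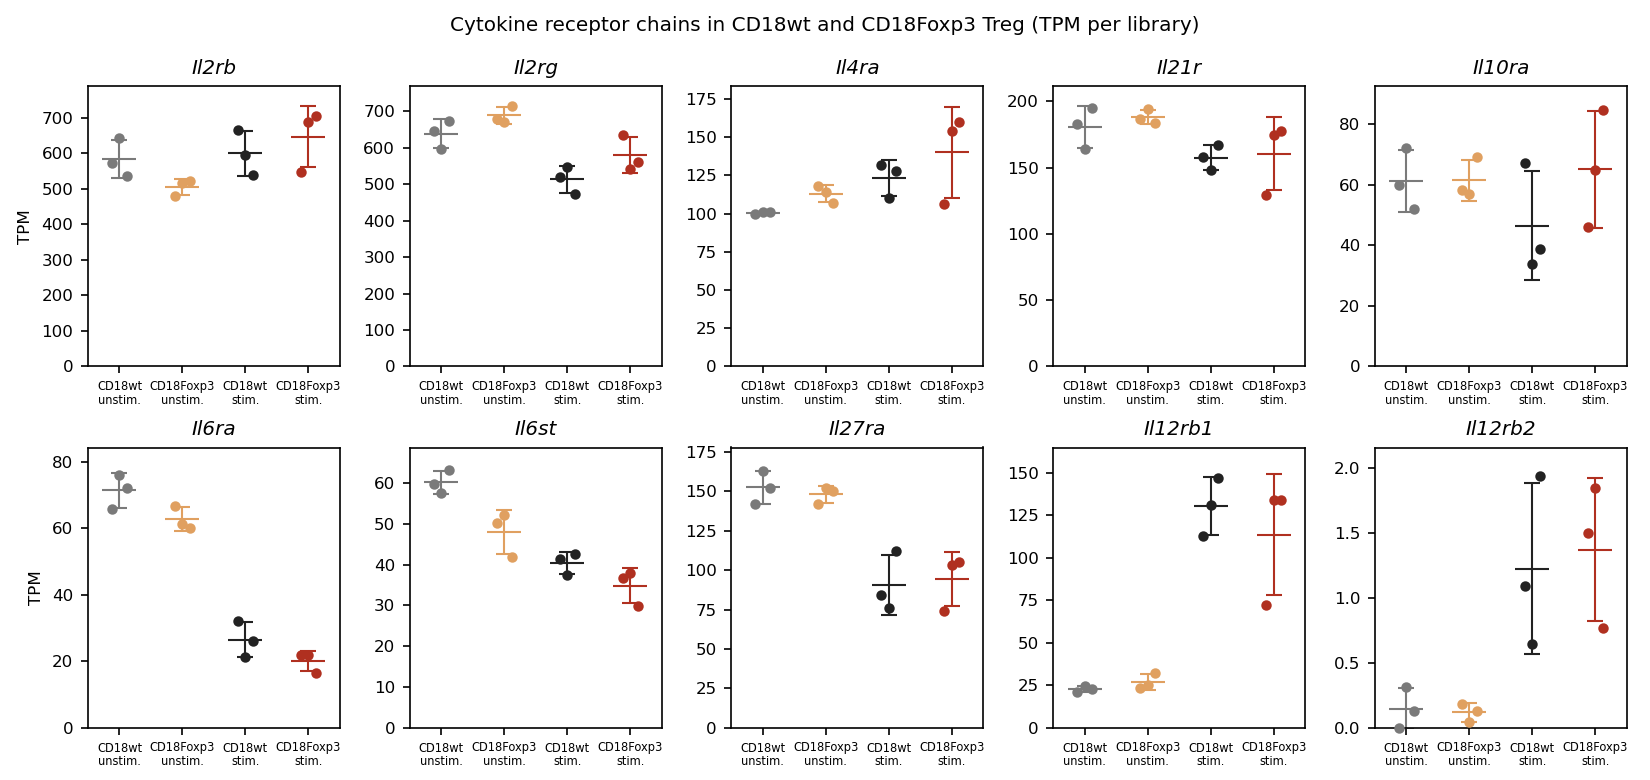
TPM of the 10 receptor chains (vertical axes, linear, from 0) in the 12 libraries, in the 4 groups of unstimulated (unstim.) and stimulated (stim.) Treg. Dots are libraries, horizontal bars are group means and whiskers are SD of 3 libraries. Il12rb1 lies at 21.0 to 32.0 TPM in the 6 unstimulated and at 72.5 to 147 TPM in the 6 stimulated libraries, and Il6ra at 60.2 to 76.1 and 16.5 to 32.1 TPM.

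The level of the chains, per length, spanned from Il2rg and Il2rb at the top to Il12rb2 at the bottom. In unstimulated CD18wt Treg the mean TPM ran from Il2rg at 638 ± 39.3 (SD, n = 3), Il2rb at 584 ± 53.6, Il21r at 181 ± 15.6, Il27ra at 153 ± 10.4 and Il4ra at 101 ± 0.958 down to Il6ra at 71.4 ± 5.18, Il10ra at 61.2 ± 10.1, Il6st at 60.1 ± 2.83, Il12rb1 at 22.8 ± 1.96 and Il12rb2 at 0.148 ± 0.157. The libraries of Il2rg and Il2rb overlapped, as did those of Il6ra and Il10ra and of Il10ra and Il6st, and the other neighbors in this order did not. Unstimulated CD18Foxp3 Treg had the same order, with the libraries of Il6ra and Il10ra alone overlapping. After stimulation Il2rb stood first, at 600 ± 63.3 TPM in CD18wt and 646 ± 85.4 TPM in CD18Foxp3 Treg, with libraries that overlapped those of Il2rg at 513 ± 36.4 and 579 ± 48.9 TPM. Il12rb1 moved up from rank 9 to 130 ± 16.8 TPM in CD18wt Treg, where its libraries overlapped those of Il4ra, and to 114 ± 35.6 TPM in CD18Foxp3 Treg, where they overlapped those of Il4ra and Il27ra, so its stimulated rank was not resolved. Il6ra moved from rank 6 to rank 9 in both, at 26.5 ± 5.35 and 20.1 ± 3.10 TPM, and overlapped neither neighbor there.

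Il12rb1 (chr8:70808449-70821424 of GRCm38, plus strand) encodes the chain that the receptors for IL-12 and IL-23 share. It was read at 21.0, 24.9 and 22.6 TPM in unstimulated CD18wt libraries and at 113, 131 and 147 TPM in stimulated ones, and at 23.5, 25.5 and 32.0 TPM against 72.5, 134 and 134 TPM in CD18Foxp3 Treg. Every stimulated library lay above every unstimulated one, and the low value among the stimulated ones belonged to the CD18Foxp3 library that stood apart. The log2 fold change was 2.12 ± 0.15 (SE) in CD18wt Treg (4.33-fold, adjusted p = 3.23e-07, edgeR quasi-likelihood test) and 1.70 ± 0.22 in CD18Foxp3 Treg (3.26-fold, adjusted p = 0.00019, the same test), and 1.92 without that library. Il12rb1 was called in each genotype with any 1 of the 6 libraries left out and under all 9 other alternatives.

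Il12rb2 (chr6:67291318-67376188, minus strand), the chain that completes the IL-12 receptor and carries its STAT4 signal, was close to the limit of these libraries. It had 0, 8 and 2 exon reads in unstimulated CD18wt libraries and 16, 14 and 38 in stimulated ones, and 5, 1 and 3 against 36, 39 and 15 in CD18Foxp3 Treg. The count of 0 allows up to 3 reads by counting error alone. Unstimulated and stimulated libraries did not overlap in either genotype, and the stimulated level reached only 1.23 ± 0.66 TPM and 1.37 ± 0.55 TPM (SD, n = 3). The log2 fold change was 2.57 ± 0.91 in CD18wt Treg (adjusted p = 0.0325, not called) and 3.08 ± 0.62 in CD18Foxp3 Treg (adjusted p = 0.00236, called), both from the edgeR quasi-likelihood test, and the call was lost on leaving out unstimulated replicate 2 or 3 or stimulated replicate 2 of CD18Foxp3 Treg. Of the 59-base stretches of the Il12rb2 exons, 37.6% (1406 of 3735) lie on the opposite strand of exons of Serbp1, an mRNA-binding protein gene read at 83.3 to 203 TPM that itself rose on stimulation by 0.59 ± 0.16 and 0.65 ± 0.10 on the log2 scale. The counting was not stated to use strand, so reads of these exons cannot be told apart. Reads across exon-exon junctions, a count chosen after the data were seen, numbered 0, 5 and 0 against 8, 8 and 21 in CD18wt Treg. In CD18Foxp3 Treg they numbered 0, 1 and 1 against 22, 15 and 3, again with no overlap between cultures. These reads are part of the exon reads, so they are no separate support for a direction.

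The gp130-linked chains fell together. Il6ra (chr3:89864059-89913196, minus strand), the IL-6 binding chain, was read at 65.9, 76.1 and 72.1 TPM in unstimulated CD18wt libraries and at 32.1, 21.4 and 26.1 TPM in stimulated ones, and at 66.8, 61.3 and 60.2 TPM against 22.0, 21.8 and 16.5 TPM in CD18Foxp3 Treg. The lowest unstimulated library was above the highest stimulated one in each genotype. Its log2 fold change was -1.84 ± 0.15 in CD18wt Treg (3.58-fold lower, adjusted p = 8.25e-07, edgeR quasi-likelihood test) and -2.01 ± 0.14 in CD18Foxp3 Treg (4.02-fold lower, adjusted p = 6.41e-06, the same test). Il6st (chr13:112464070-112510086, plus strand), which encodes gp130 itself, was read at 59.6, 57.6 and 63.1 TPM against 41.3, 37.4 and 42.5 TPM in CD18wt Treg, and at 50.2, 52.0 and 41.8 TPM against 36.7, 37.9 and 29.9 TPM in CD18Foxp3 Treg. These libraries did not overlap either, and Il6st fell by 0.98 ± 0.13 and 0.83 ± 0.14 on the log2 scale (adjusted p = 3.58e-05 and 0.000902, edgeR quasi-likelihood test). Il27ra (chr8:84030294-84042589, minus strand), the IL-27 binding chain, was read at 142, 163 and 152 TPM against 84.0, 75.7 and 112 TPM in CD18wt Treg and at 142, 152 and 150 TPM against 74.3, 103 and 105 TPM in CD18Foxp3 Treg. Again the cultures did not overlap, and Il27ra fell by 1.16 ± 0.14 and 1.02 ± 0.14 on the log2 scale (adjusted p = 2.39e-05 and 0.000201, edgeR quasi-likelihood test). Il6ra and Il27ra were called under every alternative, and Il6st under all but limma on log2(TPM + 1), where the log2 difference was -0.56 and -0.45.

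Among the chains that sit with the common gamma chain, Il2rg and Il21r fell and Il2rb and Il4ra stayed short of the test. Il2rg (chrX:101264378-101268255, minus strand) was read at 645, 596 and 674 TPM in unstimulated and 521, 546 and 474 TPM in stimulated CD18wt libraries, and at 680, 672 and 714 TPM against 635, 543 and 560 TPM in CD18Foxp3 Treg. No stimulated library reached the unstimulated ones of its genotype. The fall was 0.71 ± 0.15 on the log2 scale in CD18wt Treg (adjusted p = 0.00146) and 0.61 ± 0.11 in CD18Foxp3 Treg (adjusted p = 0.00116, both edgeR quasi-likelihood test). In each library 51.1% to 55.4% of the Il2rg exon reads were placed uniquely. Of its 59-base stretches, 27.0% also belong to exons of Gm20489, an overlapping gene on the same strand with 0 to 22 reads per library, and where else the remaining reads were placed was not tested. The call in CD18Foxp3 Treg was lost on unique reads alone (-0.56) and without stimulated replicate 2 (-0.55). With limma on log2(TPM + 1) it was lost in both genotypes, at -0.31 (adjusted p = 0.0324) in CD18wt and -0.25 (adjusted p = 0.0565) in CD18Foxp3 Treg.

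Il21r (chr7:125603429-125633570, plus strand), the IL-21 binding chain, was read at 183, 164 and 195 TPM against 158, 148 and 167 TPM in CD18wt Treg and at 187, 194 and 184 TPM against 129, 175 and 178 TPM in CD18Foxp3 Treg. The CD18wt libraries overlapped in TPM and not in normalized counts, where the log2 fold change was -0.61 ± 0.13 (adjusted p = 0.00205) and in CD18Foxp3 Treg -0.60 ± 0.13 (adjusted p = 0.00369, both edgeR quasi-likelihood test). At 1.52-fold and 1.51-fold these were at the edge of the threshold. The call was lost without unstimulated replicate 3 in CD18wt Treg (-0.50). In CD18Foxp3 Treg it was lost on leaving out any of 4 of the 6 libraries (-0.64 to -0.49), with -0.49 without the library that stood apart. Il21r was called under 7 of the 9 other alternatives in each genotype, where the weakest estimates were -0.20 in CD18wt and -0.24 in CD18Foxp3 Treg. Il4ra (chr7:125552120-125579474, plus strand), the IL-4 binding chain, lies 23954 bases from Il21r. It was read at 99.7, 101 and 101 TPM against 132, 110 and 128 TPM in CD18wt Treg and at 118, 114 and 107 TPM against 106, 154 and 160 TPM in CD18Foxp3 Treg. Its stimulated CD18wt libraries lay above the unstimulated ones in TPM and below them in TMM-normalized counts per 1000000 reads (CPM), where the log2 fold change was -0.12 ± 0.12, against 0.28 in log2(TPM + 1). In CD18Foxp3 Treg it was -0.06 ± 0.15 in counts, 0.29 in log2(TPM + 1) and 0.08 in counts without the library that stood apart, so no direction can be given for Il4ra.

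Il2rb (chr15:78479256-78495271, minus strand), the signaling chain of the receptors for IL-2 and IL-15, was read at 573, 642 and 537 TPM against 666, 595 and 540 TPM in CD18wt Treg and at 480, 516 and 521 TPM against 548, 687 and 704 TPM in CD18Foxp3 Treg. The log2 fold change was -0.36 ± 0.15 and -0.01 ± 0.11 in counts (adjusted p = 0.0572 and 0.93, edgeR quasi-likelihood test) and 0.04 and 0.35 in log2(TPM + 1), so the direction depended on the scale, and in CD18Foxp3 Treg it was 0.06 in counts without the library that stood apart. Il10ra (chr9:45253837-45269149, minus strand), the IL-10 binding chain, was read at 59.8, 72.0 and 51.9 TPM against 67.1, 33.8 and 38.7 TPM in CD18wt Treg and at 58.2, 56.9 and 69.3 TPM against 46.0, 64.8 and 84.6 TPM in CD18Foxp3 Treg. The stimulated libraries were the more scattered in both genotypes and overlapped the unstimulated ones in TPM. It fell by 0.81 ± 0.22 on the log2 scale in CD18wt Treg (adjusted p = 0.00922, edgeR quasi-likelihood test), a call that was lost on leaving out any 1 of 5 of the 6 libraries, and the log2 fold change was -0.28 ± 0.19 in CD18Foxp3 Treg (adjusted p = 0.237, the same test). In CD18Foxp3 Treg it was -0.11 without the library that stood apart and -0.53 without stimulated replicate 3.

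**Figure D2:**
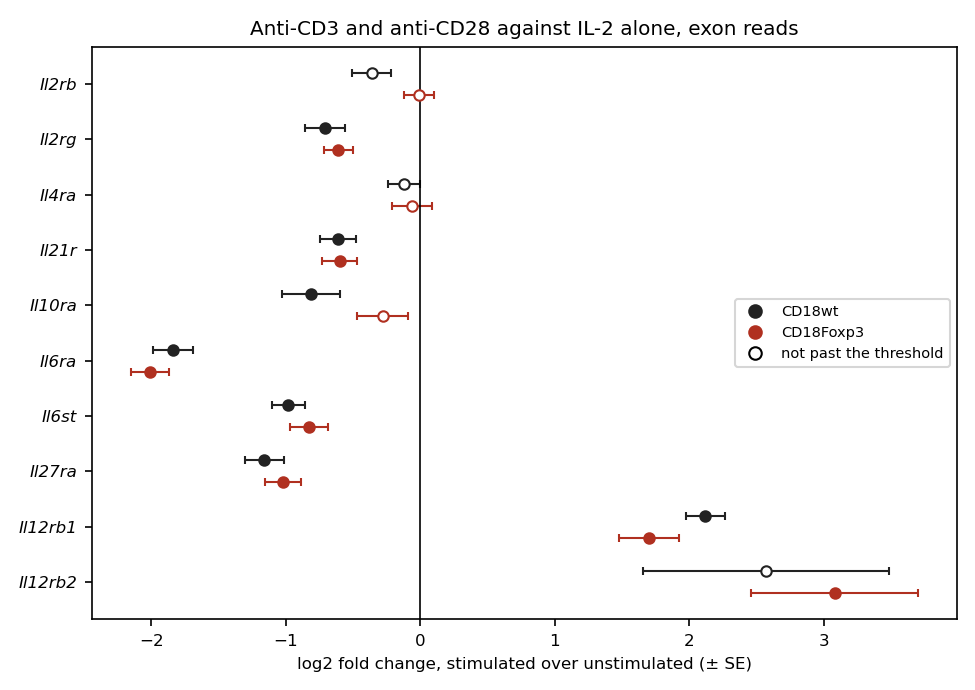
Log2 fold change of exon reads, stimulated over unstimulated, for each receptor chain in CD18wt (black) and CD18Foxp3 (red) Treg. Points are edgeR estimates, whiskers are SE, and open points were not past the threshold. Il12rb1 lies at 2.12 and 1.70, Il6ra at -1.84 and -2.01, and the whiskers of Il12rb2 are the widest of the 10 in both genotypes.

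Sequences upstream of the transcript start were at hand for 6 of the 10 genes in RefSeq (GRCm38.p6). Those of Il6ra and Il6st are shown because these partner chains fell together in exon and intron reads. That of Il12rb2 is shown because its libraries, though low in reads, did not overlap between cultures. This is no support for a direction, since Il12rb2 passed the filter on low counts only through its stimulated libraries. Each is the 250 bases before the start, 5′ to 3′ on the gene's strand (Il6ra chr3:89913197-89913446, minus; Il6st chr13:112463820-112464069, plus; Il12rb2 chr6:67376189-67376438, minus).

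Il6ra: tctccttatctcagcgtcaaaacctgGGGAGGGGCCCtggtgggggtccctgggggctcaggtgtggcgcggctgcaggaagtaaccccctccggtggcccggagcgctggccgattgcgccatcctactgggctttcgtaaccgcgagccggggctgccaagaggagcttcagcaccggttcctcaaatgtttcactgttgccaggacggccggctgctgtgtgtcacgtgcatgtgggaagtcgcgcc

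Il6st: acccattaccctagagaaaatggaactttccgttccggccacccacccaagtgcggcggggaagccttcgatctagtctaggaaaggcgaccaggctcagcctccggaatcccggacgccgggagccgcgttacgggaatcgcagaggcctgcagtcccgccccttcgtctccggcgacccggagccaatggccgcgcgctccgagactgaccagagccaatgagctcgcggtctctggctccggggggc

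Il12rb2: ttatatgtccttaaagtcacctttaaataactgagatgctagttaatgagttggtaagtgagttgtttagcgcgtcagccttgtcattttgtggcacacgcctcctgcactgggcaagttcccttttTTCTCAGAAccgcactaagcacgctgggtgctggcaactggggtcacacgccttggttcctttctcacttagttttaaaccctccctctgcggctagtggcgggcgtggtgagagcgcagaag

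Capitals mark matches on either strand to the letters TTCNNNGAA (GAS, the STAT element), TGANTCA (AP-1), GGG and CC with any 5 bases between them (NF-kB) or TGGAAA (NFAT). Il12rb2 held 1 GAS match, which begins 123 bases before the start, and 7.02% of 32851 RefSeq windows of the same length held such a match. Il6ra held 2 overlapping NF-kB matches, which begin 224 and 223 bases before the start, and 45.8% of the windows held this motif. Il6st held none of the 4, where 6.75% of the windows held AP-1 and 18.6% NFAT. Of the sequences not shown, that of Il2rg, which also fell in exon and intron reads, held 1 NFAT match, beginning 23 bases before the start. That of Il21r held 1 NF-kB match, beginning 231 bases before the start, and that of Il4ra held none of the 4. A match in these letters is a description and not a site.

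Intron reads, which can come from RNA not yet spliced and were not used to choose the genes, were tested in the same way. Their source was not tested, and the counting was not stated to use strand. In CD18wt Treg 4 of the 10 members were called, 1 higher and 3 lower, where 7.80% of 9492 genes were called, 2.71% higher and 5.09% lower. In CD18Foxp3 Treg it was 6 of 10, 2 higher and 4 lower, where 30.4% of 10260 genes were called, 15.0% higher and 15.4% lower. The CD18wt libraries varied more, with 3.32% of reads in introns in unstimulated replicate 3 and 3.66% in stimulated replicate 2, against 4.75% to 5.99% in the other 10 libraries.

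Il12rb1 had 13, 25 and 12 intron reads in unstimulated and 58, 108 and 158 in stimulated CD18wt libraries, and 20, 12 and 26 against 101, 158 and 110 in CD18Foxp3 Treg. Its intron reads rose by about as much as its exon reads, by 2.11 ± 0.45 and 2.13 ± 0.33 on the log2 scale (adjusted p = 0.00411 and 3.48e-07, edgeR quasi-likelihood test). Il6st had 347, 278 and 63 intron reads against 35, 47 and 138 in CD18wt Treg, where replicates overlapped before normalization, and 231, 198 and 168 against 86, 81 and 77 in CD18Foxp3 Treg. They fell by 2.13 ± 0.37 and 1.84 ± 0.22 on the log2 scale (adjusted p = 0.000963 and 4.15e-10, edgeR quasi-likelihood test), compared with 0.98 and 0.83 for exon reads. Il2rg showed the same order, with an intron log2 fold change of -1.81 ± 0.40 and -1.84 ± 0.23 (adjusted p = 0.00482 and 3.25e-09, edgeR quasi-likelihood test) on 20 to 215 intron reads per library. For Il6ra the intron estimate was the smaller of the pair, at -1.40 ± 0.29 and -1.37 ± 0.22 (adjusted p = 0.00368 and 8.81e-07, the same test).

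Il27ra was the only member called on exon reads in a comparison whose intron change in that comparison had the opposite sign, and this held in both genotypes. Its intron reads numbered 34, 86 and 23 in unstimulated and 65, 15 and 309 in stimulated CD18wt libraries, which overlapped, and 56, 53 and 87 against 176, 195 and 144 in CD18Foxp3 Treg, which did not. The intron log2 fold change was 0.72 ± 0.68 in CD18wt Treg (adjusted p = 0.511) and 0.83 ± 0.25 in CD18Foxp3 Treg (adjusted p = 0.00487, both edgeR quasi-likelihood test), while its exon reads fell in both. The intron share of Il27ra reads was 1.05% to 2.60% in the 6 unstimulated libraries and 7.13% to 13.3% in 4 of the 6 stimulated ones, with 5.43% and 0.978% in stimulated CD18wt replicates 1 and 2. Il2rb, not called on exon reads, had a lower intron count in stimulated CD18Foxp3 Treg (-1.20 ± 0.18, adjusted p = 2.43e-07) and -0.87 ± 0.33 in CD18wt Treg (adjusted p = 0.0737, both edgeR quasi-likelihood test). Il4ra, Il21r, Il10ra and Il12rb2 were not called on intron reads in either genotype, with log2 fold changes of -0.44 to 0.42. The difference between the exon and the intron change of a gene was not itself tested.

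**Figure D3:**
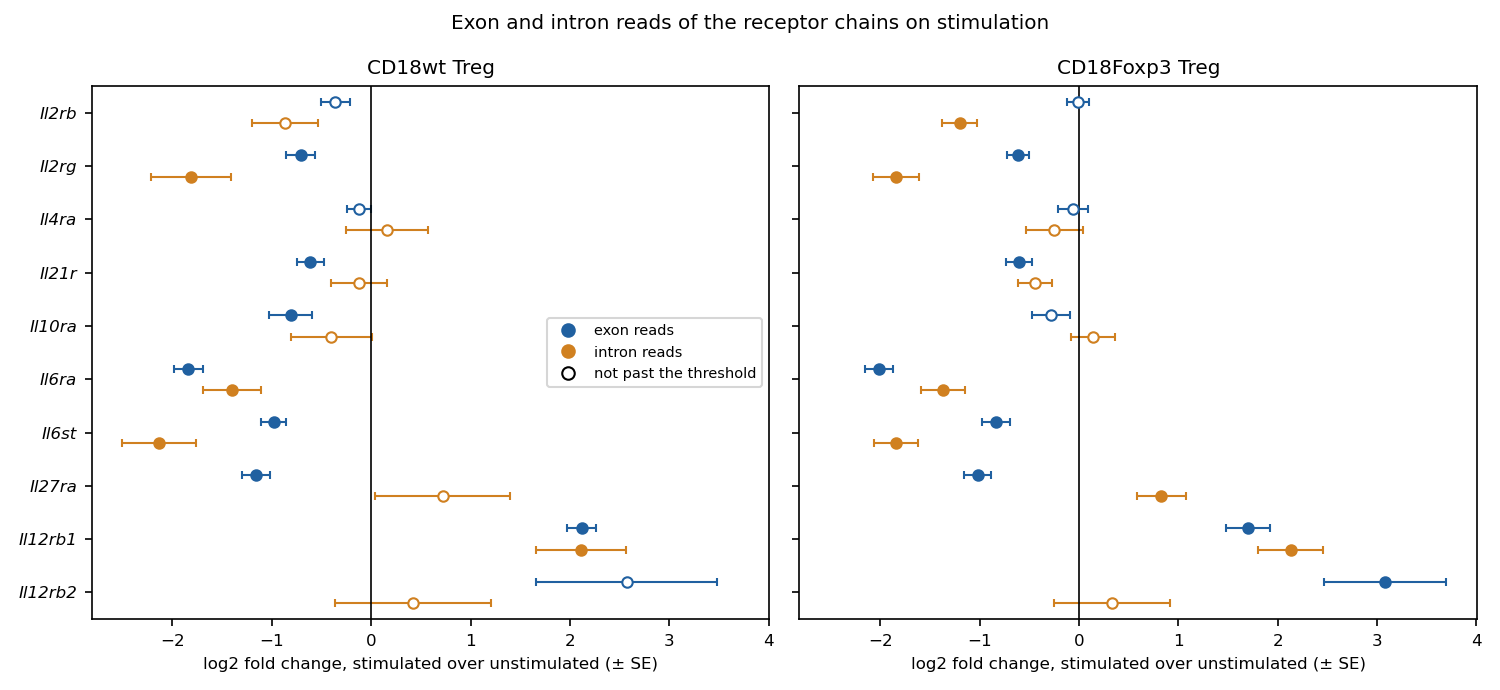
Log2 fold change on stimulation of exon reads (blue) and intron reads (orange) of each receptor chain, in CD18wt Treg (left) and CD18Foxp3 Treg (right). Points are edgeR estimates, whiskers are SE, and open points were not past the threshold. Il27ra lies at -1.02 for exons and at 0.83 for introns in CD18Foxp3 Treg, and Il6st and Il2rg lie further left for introns than for exons.

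Because chains work in pairs, the ratio of their TPM was compared within each library, a measure that does not depend on how libraries are scaled. Of 7 ratios planned, 6 had at least 10 reads of both chains in every library, and Il12rb2/Il12rb1 did not. Culture labels were permuted within genotype (two-sided exact permutation test, 400 arrangements, smallest possible p = 0.005), with adjustment over the 6 ratios. This test treats no libraries as pairs. With same-numbered libraries of a genotype as pairs, every adjusted p was 0.0938 or higher (exact sign-flip test).

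The ratio of Il6ra to Il6st was 1.11, 1.32 and 1.14 in unstimulated and 0.776, 0.571 and 0.614 in stimulated CD18wt libraries, and 1.33, 1.18 and 1.44 against 0.599, 0.575 and 0.553 in CD18Foxp3 Treg. The IL-6 binding chain thus went from more to less RNA per length than gp130, with no overlap among the 12 libraries, a change of -1.03 on the log2 scale (exact permutation p = 0.005, adjusted p = 0.015). Il27ra to Il6st was 2.39 to 3.59 without and 2.02 to 3.51 with stimulation, a log2 change of -0.20 (exact permutation p = 0.19, adjusted p = 0.228). The ratio of Il2rb to Il2rg was 0.889, 1.08 and 0.796 against 1.28, 1.09 and 1.14 in CD18wt Treg and 0.707, 0.767 and 0.729 against 0.864, 1.27 and 1.26 in CD18Foxp3 Treg. It rose by 0.48 on the log2 scale (exact permutation p = 0.005, adjusted p = 0.015), with no overlap within a genotype. Il4ra to Il2rg was 0.15 to 0.173 without stimulation and 0.167 to 0.286 with it, a rise of 0.57 (exact permutation p = 0.015, adjusted p = 0.03), in which the library that stood apart was the lowest stimulated one. Il21r to Il2rg was 0.258 to 0.289 and 0.203 to 0.353, a log2 change of 0.06 (exact permutation p = 0.625, adjusted p = 0.625), and 0.17 (adjusted p = 0.048) without that library. Il10ra to Il10rb, the shared chain of the IL-10 receptor, was 0.864 to 1.41 and 1.24 to 2.25, a rise of 0.53 (exact permutation p = 0.02, adjusted p = 0.03). The adjusted p of this ratio was above 0.05, and at most 0.0675, without unstimulated CD18Foxp3 replicate 1 or 2 or stimulated CD18wt replicate 1 (exact permutation test).

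**Figure D4:**
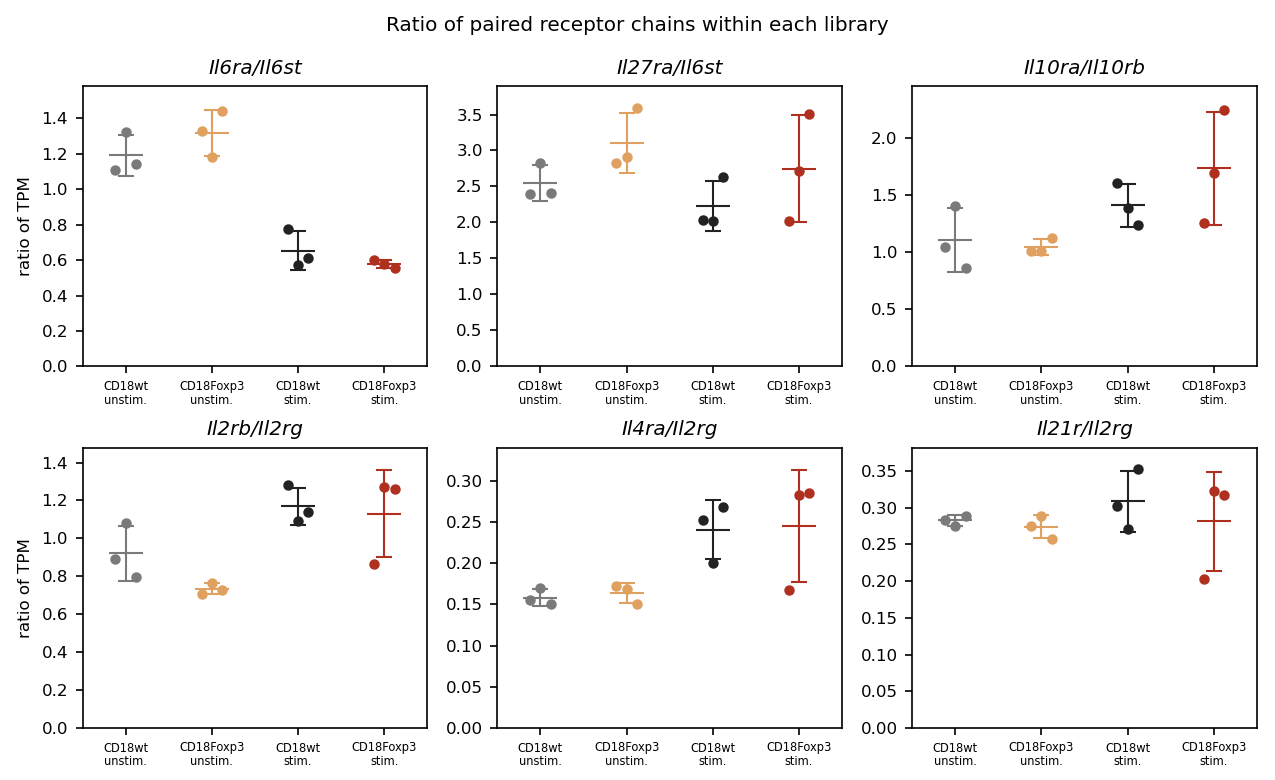
Ratio of the TPM of paired receptor chains (vertical axes, linear, from 0) in each library of the 4 groups. Dots are libraries, horizontal bars are group means and whiskers are SD of 3 libraries. Il6ra/Il6st lies at 1.11 to 1.44 in the 6 unstimulated and at 0.553 to 0.776 in the 6 stimulated libraries.

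None of the receptor chains tested was called between genotypes. In unstimulated Treg 9 of the 10 members passed the filter on low counts and none was called with edgeR or with DESeq2, where 0.135% of 11829 genes were called (0.0507% higher and 0.0845% lower in CD18Foxp3 Treg), and 3 of the 9 had an unadjusted p under 0.05, as did 1134 of all genes tested (9.59%). Il6st was at 59.6, 57.6 and 63.1 TPM in CD18wt and at 50.2, 52.0 and 41.8 TPM in CD18Foxp3 libraries, Il2rb at 573, 642 and 537 against 480, 516 and 521 TPM, and Il6ra at 65.9, 76.1 and 72.1 against 66.8, 61.3 and 60.2 TPM. The genotypes did not overlap for Il6st and Il2rb and did for Il6ra. Il4ra, higher in CD18Foxp3 Treg, did not overlap in TPM either (99.7 to 101 against 107 to 118) and did in normalized counts. The share of all genes without overlap was not counted in any comparison. The log2 differences, CD18Foxp3 over CD18wt, were -0.35 ± 0.11 for Il6st, -0.23 ± 0.09 for Il2rb and -0.21 ± 0.09 for Il6ra (adjusted p = 0.27, 0.404 and 0.485, edgeR quasi-likelihood test). For the other 6 they were between -0.07 and 0.21, all with SE of at most 0.125.

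In stimulated Treg none of the 10 members was called with edgeR or with DESeq2 and none had an unadjusted p under 0.05, where 0.0% of 11930 genes were called and 583 had an unadjusted p under 0.05. Il10ra had the largest log2 difference, 0.50 ± 0.27, with libraries at 67.1, 33.8 and 38.7 TPM in CD18wt and 46.0, 64.8 and 84.6 TPM in CD18Foxp3 Treg that overlapped. It was 0.69 without the library that stood apart, and 0.26 to 0.84 on leaving out each library in turn, lowest without CD18Foxp3 replicate 3 and highest without CD18wt replicate 1. For Il6ra it was -0.38 ± 0.18, with CD18Foxp3 libraries below the CD18wt ones in normalized counts (44.1 to 59.2 against 61.3 to 82.2 CPM) and overlapping in TPM. Il6st libraries lay the same way on both scales, at -0.2 ± 0.15. All 10 adjusted p were 0.998 (edgeR quasi-likelihood test). The test of whether the response to stimulation differed between genotypes, an interaction over all 12 libraries, called none of the 10 members with edgeR or DESeq2, none of which had an unadjusted p under 0.05, and 0.0% of 12636 genes. The largest interactions were 0.52 ± 0.33 for Il10ra, 0.50 ± 1.20 for Il12rb2, -0.41 ± 0.28 for Il12rb1 and 0.34 ± 0.18 for Il2rb. That of Il12rb1 was -0.18 without the library that stood apart, the lowest in size of -0.56 to -0.18 on leaving out each library, and that of Il10ra 0.71, within a range of 0.28 (without stimulated CD18Foxp3 replicate 3) to 0.85 (without stimulated CD18wt replicate 1). The SE of the members other than Il12rb2 were 0.18 to 0.33, and a p that misses the threshold does not show that the genotypes responded alike.

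**Figure D5:**
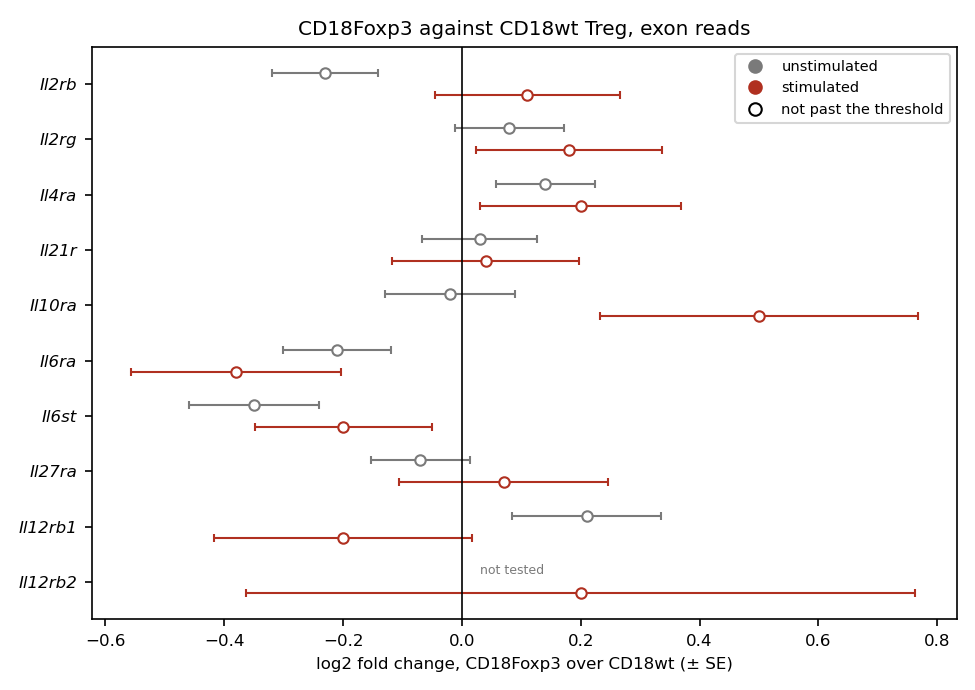
Log2 fold change of exon reads, CD18Foxp3 over CD18wt, for each receptor chain in unstimulated (gray) and stimulated (red) Treg. Points are edgeR estimates and whiskers are SE. All points are open, since none was past the threshold, and Il12rb2 was not tested in unstimulated Treg.

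The partners of these chains were described from lists of the same pathways. Of 27 other receptor chains, 14 were tested in each stimulation comparison, of which 1 was higher and 8 were lower in CD18wt Treg and 1 higher and 6 lower in CD18Foxp3 Treg. Of all genes tested, 18.7% and 20.9% were higher and 14.9% and 17.6% lower in these comparisons. The chain that was higher was Il2ra, the high-affinity IL-2 binding chain CD25, at 133, 170 and 156 TPM against 883, 926 and 1130 TPM in CD18wt Treg and at 133, 124 and 107 TPM against 1550, 1150 and 1410 TPM in CD18Foxp3 Treg. Its log2 fold change was 2.27 ± 0.16 and 3.13 ± 0.16 (adjusted p = 3.77e-07 and 1.85e-06, edgeR quasi-likelihood test), and the difference between the genotypes' responses, 0.85 ± 0.22, was not called (adjusted p = 0.847, the same test). Among the chains that fell were Il7r of the IL-7 receptor (-2.98 in both), Il9r of the IL-9 receptor (-3.25 and -2.35), Il13ra1 of the IL-13 receptor (-2.57 and -2.10) and Il10rb (-1.21 and -1.0), all on the log2 scale. In stimulated CD18wt libraries Il9r and Il13ra1 went down to 0.141 and 0.366 TPM. Both passed the filter there only through unstimulated libraries, so their place among the 8 lower chains is no support for a direction.

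Of 14 ligands of the receptors, 7 were tested in CD18wt Treg, of which 3 rose and 1 fell, and 8 in CD18Foxp3 Treg, of which 4 rose and 1 fell, beside the same shares of all genes. Il2, tested through its stimulated libraries, had 0 to 4 exon reads in the 6 unstimulated libraries, 623, 442 and 242 in stimulated CD18wt libraries and 439, 298 and 94 in stimulated CD18Foxp3 libraries. Lif, which signals through gp130, rose by 3.55 ± 0.35 and 3.62 ± 0.28 and Il10 by 2.69 ± 0.27 and 3.26 ± 0.28 on the log2 scale. Il21, the ligand of Il21r, had 205, 351 and 206 exon reads in unstimulated CD18wt, 90, 80 and 85 in unstimulated CD18Foxp3, 82, 37 and 78 in stimulated CD18wt and 18, 44 and 9 in stimulated CD18Foxp3 libraries. It fell by 2.10 ± 0.36 and 2.05 ± 0.48 on the log2 scale on stimulation. In CD18Foxp3 Treg Il21 passed the filter only through its unstimulated libraries, so the fall there is no support for a direction. Il21 was lower in unstimulated CD18Foxp3 than CD18wt Treg, by a log2 change of -1.78 ± 0.22 (adjusted p = 0.00579, edgeR quasi-likelihood test). Of the 4 lists of receptors, ligands, JAK kinases and STAT factors, Il21 was the only gene called between genotypes by the main edgeR test. DESeq2 called it too. The call was lost with limma, on exon-exon reads, in the fit of all 12 libraries and on leaving out any of 4 of the 6 libraries.

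Il13, which signals through IL4RA, is named because DESeq2 called it between genotypes, a choice made after its values were seen. It had 4, 4 and 0 exon reads in unstimulated CD18wt, 1, 0 and 4 in unstimulated CD18Foxp3, 0, 4 and 4 in stimulated CD18wt and 71, 39 and 38 in stimulated CD18Foxp3 libraries. The stimulated CD18Foxp3 libraries lay above all 9 others. Il13 passed the filter on low counts only through these libraries, so its place as the fourth ligand called higher in CD18Foxp3 Treg (4.59 ± 0.73 on the log2 scale) is no support for a direction. Between the genotypes in stimulated Treg the log2 difference was 3.98 ± 0.74 with edgeR's quasi-likelihood test (adjusted p = 0.216, not called) and 4.04 ± 0.80 with DESeq2 (adjusted p = 0.000729, called). It was also called with no filter (adjusted p = 0.000125, edgeR) and under none of the other alternatives. The interaction was 4.71 ± 1.44 (adjusted p = 0.987, edgeR quasi-likelihood test).

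Of the 4 JAK kinases, 3 were lower in CD18wt and 2 in CD18Foxp3 Treg, beside 14.9% and 17.6% of all genes. Jak1, which binds gp130, IL2RB and IL4RA, fell by 1.21 ± 0.15 and 1.22 ± 0.10, and Jak3, which binds the common gamma chain, by 0.91 ± 0.18 and 1.12 ± 0.20, both on the log2 scale. Of the 7 STAT factors, 1 was higher and 1 lower in CD18wt Treg, and 1 higher and 3 lower in CD18Foxp3 Treg, beside 33.6% and 38.6% of all genes called in either direction, so that the CD18wt share was near that of all genes. Stat4, which the IL-12 receptor activates, fell by 1.38 ± 0.16 and 1.18 ± 0.16, while Stat5a, which the IL-2 receptor activates, rose by 0.65 ± 0.14 and 0.71 ± 0.12, both on the log2 scale. Stat5b, the other STAT5 gene, went the other way, at -0.4 ± 0.13 (not called) and -0.64 ± 0.12 (called). In unstimulated CD18wt Treg Stat5b was read at a mean of 143 TPM and Stat5a at 41.2 TPM. Il12rb1 and Stat4 differed in direction in both genotypes.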

How the data were processed

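Per the labels and the study's methods, poly(A) libraries were made from 10 ng of total RNA with 15 PCR cycles and sequenced as 59-base single reads. After trimming, the authors aligned reads to GRCm38 and tallied them gene by gene with CLC Genomics Workbench v20.0 at its default settings. The deposited tables hold, per library and gene, counts of exon, exon-exon, intron and uniquely placed reads without normalization, and TPM, another unit, computed by the authors from exon counts and exon length and with the same sum in every library. RPKM and a column equal to the exon count were not used.

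Exon counts were tested with edgeR 4.0.16 in R 4.3.3 (filterByExpr with a minimum count of 10, TMM, robust quasi-likelihood F-test), each comparison on its 6 libraries and the interaction on all 12. Intron counts were tested in the same way. DESeq2 1.42.0, limma 3.58.1 on log2(TPM + 1), other normalizations, no filter, unique reads, a replicate block, a looser threshold and leaving out each library were alternatives. The scripts were checked on simulated counts. Levels between genes were compared in TPM only, and gene spans equalled those of the GRCm38 annotation for all 10 genes.

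The 10 members and the lists of partners were chosen with earlier results of these data known. All members are named. Of each list, the at most 4 genes called in both stimulation comparisons with the largest mean absolute log2 fold change are named, with Il2ra, Il10rb, Itgb2, Foxp3, any gene called in a genotype comparison and, for each member, the gene most like it over the libraries. Serbp1 and Gm20489 were added for their overlap, Il13 for its call by DESeq2 and Stat5b beside Stat5a. 1 B cell marker is not reported here. A legend of the study describes plotted transcript values as individual mice, while whether both cultures of a genotype came from the same mice was not stated in the sources used here, and p-values measure the spread between these libraries. Limits for counts of 0 cover counting error only, since PCR reads without molecular identifiers are not independent molecules.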

Additional observations from a re-analysis of the deposited data

How the results depend on the processing

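The directions of Il6ra, Il6st, Il27ra, Il2rg, Il21r and Il12rb1 on stimulation held under every alternative in both genotypes. limma on log2(TPM + 1), which does not remove the shift of all genes, left 3 called members in CD18wt and 4 in CD18Foxp3 Treg and turned Il2rb (0.04 in CD18wt, 0.35 in CD18Foxp3) and Il4ra (0.28 and 0.29), and in CD18Foxp3 Treg Il10ra (0.05). Exon-exon reads, chosen after seeing the data, gave 0.08 for Il2rb and 0.15 for Il4ra in CD18Foxp3 Treg, and too few for a fit of Il12rb2 on stimulation. No filter gave 0.00 for Il2rb there. Leaving out 1 library gave -0.09 to 0.06 for Il2rb and -0.19 to 0.08 for Il4ra in CD18Foxp3 Treg.

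Counts of all genes called between genotypes depended on the tool, and no alternative called a member. In unstimulated Treg, 16 genes became 86 with DESeq2, 134 with no filter, 7 with exon-exon reads, 1 with limma, 0 in 1 fit of all 12 libraries, 33 at an adjusted p of up to 0.05, and 0 to 44 on leaving out 1 library (44 without CD18wt replicate 3). In stimulated Treg, 0 became 22 with DESeq2, 61 with no filter and 0 to 2 without 1 library. For the interaction, 0 became 1 with DESeq2, 31 with no filter and 1 with limma. Small genotype differences of members changed sign. In unstimulated Treg, Il10ra was 0.01 with limma and -0.09 to 0.09 and Il21r -0.05 to 0.13 without 1 library. In stimulated Treg, Il21r was -0.01 and Il12rb2 -0.06 with exon-exon reads, and without 1 library the ranges were -0.05 to 0.16 for Il21r, -0.02 to 0.21 for Il27ra, -0.34 to 0.03 for Il12rb1 and -0.08 to 0.66 for Il12rb2. The interaction of Il21r was -0.01 with no filter, -0.00 with exon-exon reads and -0.05 with limma, and without 1 library the ranges were -0.10 to 0.13 for Il21r, -0.06 to 0.21 for Il4ra and -0.85 to 1.11 for Il12rb2. Apart from the scale and the samples left out, the cause of these changes was not tested.

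Same-numbered libraries did not deviate together throughout. The correlation of their deviations from the group means was -0.133 to 0.147 between cultures of CD18wt and 0.063 to 0.225 between cultures of CD18Foxp3. Between genotypes it was -0.209 to 0.096. Libraries were not treated as pairs in the main tests, though such correlations cannot exclude pairing. All 3 CD18Foxp3 and 1 of 3 CD18wt libraries correlated best with their own number between cultures. Deposited names also carry a number in common for such libraries, which hints at a shared origin that no source used here states. A replicate block gave 3588 called genes for stimulation in CD18wt Treg, 4899 for stimulation in CD18Foxp3 Treg, 41 and 1 between genotypes without and with stimulation, and changed no call of a member, with -0.02 for the interaction of Il21r. With signs flipped within such pairs, the changes of the ratios stayed at 0.48 for Il2rb/Il2rg, 0.57 for Il4ra/Il2rg, -1.03 for Il6ra/Il6st and 0.53 for Il10ra/Il10rb, each with an adjusted p of 0.0938 in an exact test whose smallest p is 0.0312, so none of the 4 adjusted p under 0.05 held under this pairing. Without 1 library the change of Il21r/Il2rg was 0.01 to 0.17 and that of Il10ra/Il10rb 0.43 to 0.63. Depth limits Il12rb2, with 0 to 39 exon reads per library.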

Other observations

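For each receptor chain, the gene whose log2 CPM followed it most closely over the 12 libraries was taken from 11234 genes. As a description, Pearson's r was 0.996 for Il12rb1 and E2f4, 0.994 for Il6ra and St8sia6, 0.988 for Il6st and Mpp1, 0.988 for Il27ra and Ttc38, 0.984 for Il2rg and Lbr, 0.982 for Il21r and Vamp5, 0.950 for Il2rb and Rtl8a, 0.950 for Il10ra and Lockd and 0.865 for Il4ra and Sema4d. All points share the libraries and the step between cultures, so that genes with a large step have a high r. Il12rb2 was not compared, since it was not tested in every comparison.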
